A study of Mus musculus with 5 samples.

Results

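The genes described here encode the constitutive proteasome, the protease that degrades ubiquitin-tagged proteins in the cytosol and nucleus of every cell. They were chosen by symbol, as genes named Psma, Psmb, Psmc, Psmd, Psme or Psmf with a number, without Psmb8, Psmb9, Psmb10 and Psme1, the interferon-inducible subunits. The rule found 40 genes among the 12393 that had a probe set paired with 1 gene, a choice that rests on symbols, with signal used to pick each gene's brightest probe set. In 2 of them, Psmc3ip, a factor of meiotic recombination, and Psme3ip1, a binding partner of an activator subunit, the symbol matches but the product is no proteasome subunit. Counts below are therefore over the other 38 genes, all of which were tested without a filter on signal. They include the assembly chaperones Psmd5, Psmd9 and Psmd10 and the inhibitor Psmf1, which carry subunit symbols but are described apart from the subunits.

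RNA from the colon of C57BL/6 mice aged 8 weeks was set against RNA from whole C57BL/6 mice at age 1 day, each a single pool over several animals. Mixes of both with colon shares of 0%, 25%, 50%, 75% and 100% were amplified from 10 ng by a double T7 protocol, and each was hybridised to 1 Affymetrix mouse array. With 1 array per mix, precision is limited by the 5 arrays, and p-values reflect technical spread and the shape of each line but not differences between mice. Tissue is confounded with age, and their parts cannot be told apart.

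In the 26S proteasome a barrel-shaped core particle, the 20S, is capped by a regulatory particle, the 19S. The core stacks rings of alpha subunits, which gate the channel, and rings of beta subunits, of which Psmb5, Psmb6 and Psmb7 carry the active sites. The regulatory particle binds ubiquitin chains, removes them, and unfolds and threads the substrate with a ring of ATPases. In immune cells and in cells exposed to interferon, Psmb8, Psmb9 and Psmb10 replace the 3 catalytic subunits, and in mammals the factor Nfe2l1 raises transcription of the constitutive genes together when proteasome activity is short.

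The 250 bases before the RefSeq start site are shown, in GRCm38.p6 coordinates and 5′ to 3′ on the gene's strand, for 3 members that changed with colon share (Psma1, Psmd10 and Psmd9), for 2 catalytic subunits (Psmb5 and Psmb6), and for 2 subunits of the regulatory particle (Psmd2 and Psmd6) that hold the ETS site counted below. Capitals mark matches on either strand to TGANNNNGC, the core of the antioxidant response element that Nfe2l1 and its relative Nfe2l2 bind, to CCAAT, or to CCGGAAG, a form of the ETS factor site. No marked matches in these 7 windows overlap.
Psma1, chr7:114276117-114276366, minus strand: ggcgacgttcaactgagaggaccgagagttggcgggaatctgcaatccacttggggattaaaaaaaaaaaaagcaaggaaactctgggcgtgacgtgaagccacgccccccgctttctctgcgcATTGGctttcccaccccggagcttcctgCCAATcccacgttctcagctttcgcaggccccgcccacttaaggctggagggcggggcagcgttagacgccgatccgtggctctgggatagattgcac
Psmd10, chrX:140956712-140956961, minus strand: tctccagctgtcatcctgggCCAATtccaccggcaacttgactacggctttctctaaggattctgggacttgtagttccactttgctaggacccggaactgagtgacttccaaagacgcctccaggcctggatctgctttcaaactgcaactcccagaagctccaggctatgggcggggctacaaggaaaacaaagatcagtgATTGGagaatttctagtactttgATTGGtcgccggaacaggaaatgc
Psmd9, chr5:123227940-123228189, plus strand: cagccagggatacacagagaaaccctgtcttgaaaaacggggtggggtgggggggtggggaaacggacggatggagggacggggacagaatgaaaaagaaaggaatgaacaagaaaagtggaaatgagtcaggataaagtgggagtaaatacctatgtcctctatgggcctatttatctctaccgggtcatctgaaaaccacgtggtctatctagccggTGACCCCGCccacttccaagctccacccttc
Psmb5, chr14:54617996-54618245, minus strand: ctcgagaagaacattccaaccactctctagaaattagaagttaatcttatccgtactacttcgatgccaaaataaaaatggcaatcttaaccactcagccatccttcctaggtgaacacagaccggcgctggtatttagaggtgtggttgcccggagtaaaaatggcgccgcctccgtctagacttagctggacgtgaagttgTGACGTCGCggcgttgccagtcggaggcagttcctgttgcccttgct
Psmb6, chr11:70525107-70525356, plus strand: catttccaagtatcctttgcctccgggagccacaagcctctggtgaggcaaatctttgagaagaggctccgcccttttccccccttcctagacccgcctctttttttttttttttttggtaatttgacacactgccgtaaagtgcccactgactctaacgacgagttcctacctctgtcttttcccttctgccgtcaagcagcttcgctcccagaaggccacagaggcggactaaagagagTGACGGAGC
Psmd2, chr16:20651402-20651651, plus strand: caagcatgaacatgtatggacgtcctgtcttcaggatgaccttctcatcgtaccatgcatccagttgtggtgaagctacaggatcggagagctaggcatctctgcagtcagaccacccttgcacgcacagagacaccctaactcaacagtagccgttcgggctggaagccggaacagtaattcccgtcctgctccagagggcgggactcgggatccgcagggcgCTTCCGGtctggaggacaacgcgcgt
Psmd6, chr14:14120946-14121195, minus strand: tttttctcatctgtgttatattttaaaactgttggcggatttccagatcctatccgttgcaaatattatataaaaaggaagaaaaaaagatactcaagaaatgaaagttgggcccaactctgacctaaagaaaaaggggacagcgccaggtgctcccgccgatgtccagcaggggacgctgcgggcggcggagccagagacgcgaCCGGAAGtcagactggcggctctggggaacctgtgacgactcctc
Of the 38 genes, 31 had an entry in the RefSeq promoter table, in 33 windows. The response element was in 12 of these windows (36.4%), against 36.0% of 12566 windows of genes on the array, and CCAAT was also in 12 (36.4%), against 34.7%. The ETS site was in 12 windows (36.4%) of 11 genes, Psma6, Psmc1, Psmc2, Psmc6, Psmd2, Psmd4, Psmd6, Psmd11, Psmd12, Psme3 and Psme4, against 10.9% of the windows of array genes and 6.91% of all 32851 windows in the table. A match in the letters is a description of the window and was not tested for binding.

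The array medians lay between 6.83 and 6.92 on the log2 scale, and the markers of the labelled tissues followed the labels. All 7 measured colon epithelium markers (Cdx1, Cdx2, Vil1, Lgals4, Krt20, Slc26a3 and Car1) were lowest in whole mouse, by 2.52 to 7.39 log2 units below colon, and all 8 markers of newborn liver, muscle, heart, cartilage, skin and red cell precursors were lowest in colon. The whole mouse RNA itself holds some colon RNA along with that of every other organ. In such bulk RNA fewer cells of a type and less RNA per cell cannot be told apart.

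The constitutive proteasome was close to flat over the dilution. The range of a gene, its highest minus its lowest log2 signal over the 5 arrays, had a median of 0.35 log2 units over the 38 genes, against 0.50 over all 12393 genes and 0.56 over the 1454 genes with a mean signal of at least 10. It was under 1 in 37 of the 38 genes, whereas 79.4% of all genes stayed under 1. Those 37 ranges ran from 0.05 for Psma8, the dimmest member with a mean of 4.68, to 0.91 for Psma1. The exception was Psmd13, with a range of 1.01. Signals were high, with gene means from 4.68 to 11.96 and a median of 10.27, against a median of 7.57 over all genes. The 22 members with a mean of at least 10 had a median range of 0.31, against the 0.56 of bright genes in general. The plot of ranges shows sets that parted mainly at the upper end: 95% of proteasome genes lay within 0.75 log2 units, 95% of all genes within 2.57 and 95% of bright genes within 4.70. Between the undiluted RNAs, only Psmd13 differed by 2-fold or more (1 of 38, against 19.6% of all genes).

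**Figure D1:**
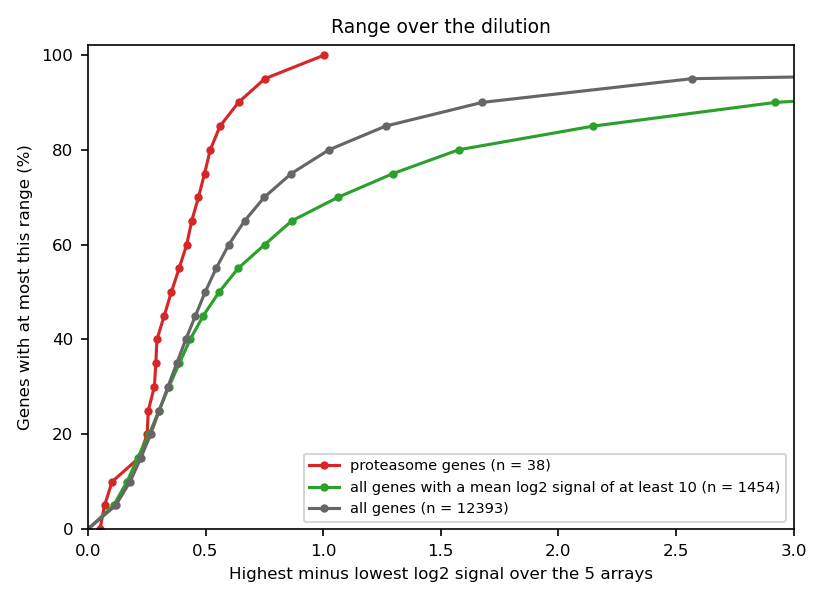
Cumulative share of genes (vertical axis, %) whose highest minus lowest log2 signal over the 5 arrays is at most the value on the horizontal axis, for the 38 proteasome genes, the 1454 genes with a mean log2 signal of at least 10, and all 12393 genes; points are percentiles in steps of 5. The proteasome curve reaches 100% at 1.01 log2 units, whereas 79.4% of all genes lie under 1.

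Change with colon share was measured as the slope of log2 signal on the colon share of total RNA, fitted over all 5 arrays with limma, and each slope below is thus a log2 difference of colon minus whole mouse as estimated from the line. At an adjusted p of 0.05 over all 22626 probe sets, 3 of the 38 genes rose (Psma1, Psmb2 and Psmd10) and 1 fell (Psmd9), 10.5% in all, against 24.3% of all genes (9.8% rising and 14.5% falling). Over all genes 1215 rose and 1797 fell, a split that became 1933 and 1703 with the arrays centred on their medians. Of the 22 bright members only Psmb2 passed (4.55%), against 29.0% of bright genes (15.4% rising). Psmc3ip and Psme3ip1 did not pass, with slopes of −0.02 and 0.04. At an unadjusted limma p under 0.05 the count was 11 of 38 (28.9%), against 41.3% of all genes. Slopes ran from −0.84 to 0.78, with 18 above and 20 below 0 and a median of −0.03 (median of all genes −0.01), or 22 above, 16 below and a median of 0.06 with centred arrays, and their median size was 0.20, against 0.32 over all genes. The straight-line fit also missed large differences. Of the tissue markers above, 2 of 7 for colon and 5 of 8 for the newborn passed. Car1, higher by 7.39 log2 units in undiluted colon, did not (slope 5.96, limma adjusted p = 0.174). The 24.3% therefore leaves out some genes that differed strongly. Misses of the threshold do not show that a level stayed equal. In 35 of 38 genes (92.1%) the 95% interval of the slope lay between −1 and 1, against 64.9% of all genes. The 3 others were Psma1, Psma6 and Psmd13. These limits stand for a 2-fold change of the fitted line either way. The interval reflects spread about a straight line and not differences between mice. The residual spread about the lines had a median SD of 0.10 log2 units for the members, against 0.14 over all genes.

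Few calls held with 1 array left out, in fits with 4 arrays and fewer residual degrees of freedom. The slopes of the called genes kept their sign. They lay from 0.42 to 0.53 for Psmb2, 0.40 to 0.63 for Psmd10, 0.49 to 0.88 for Psma1 and −0.59 to −0.45 for Psmd9. With the whole mouse, the 50% or the colon array left out, 0 of the 38 genes passed (8.34%, 10.7% and 5.91% of all genes did); without the 25% array only Psma1 did (16.3% of all genes), and without the 75% array only Psmd13, which fell there by 1.00 log2 units (7.9% of all genes). The 38 genes had 74 probe sets, of which 6 passed, against 19.5% of all probe sets: those of the 4 genes named and dimmer ones of Psmd7 and Psme4. Exact ties between arrays, which the median polish of RMA produces and which pull small differences to 0, occurred in 17 of the 38 genes (44.7%), against 36.9% of all genes.

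**Figure D2:**
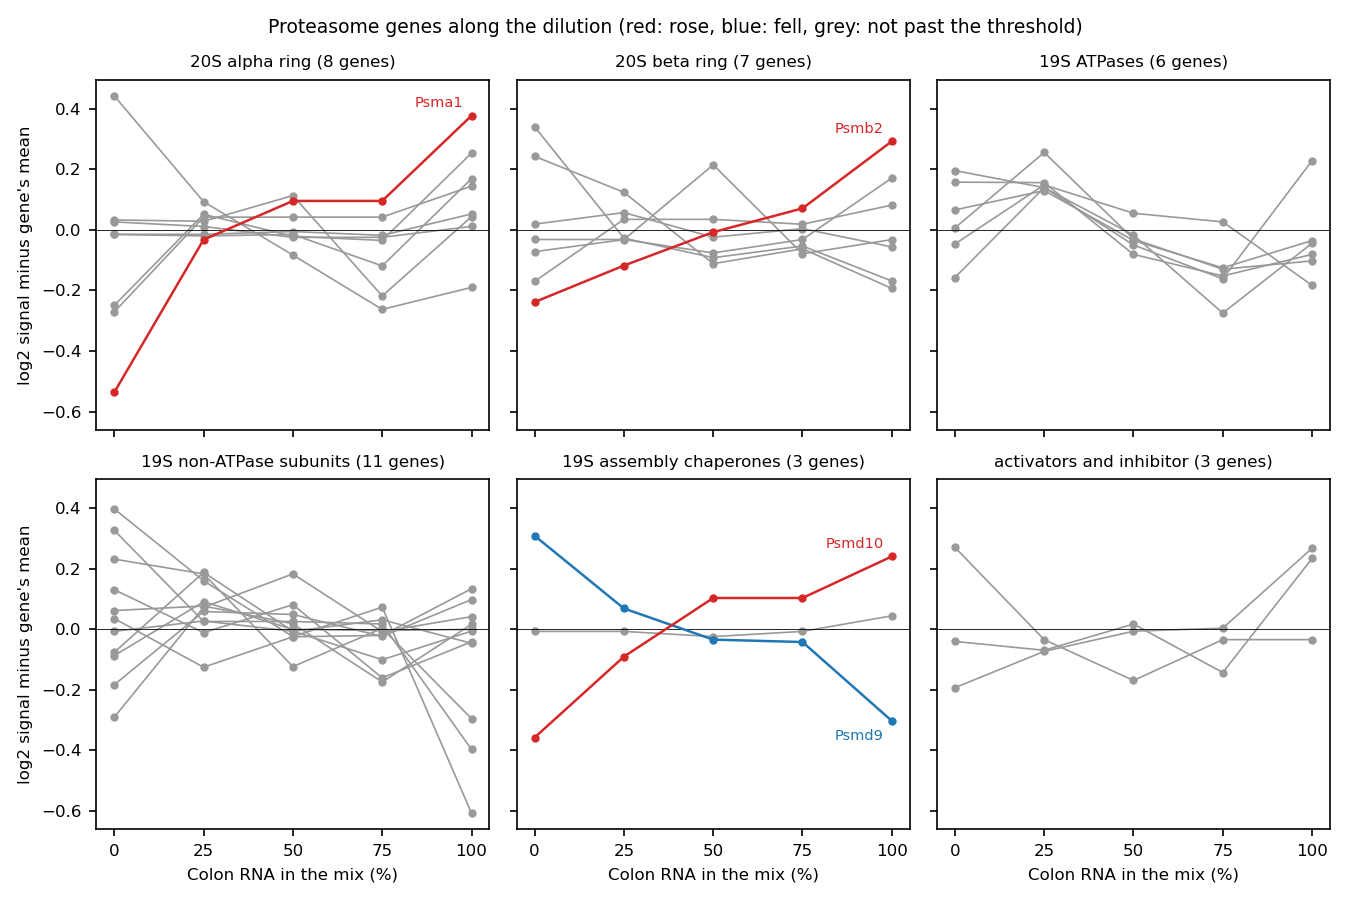
Log2 signal of each proteasome gene minus its own mean over the 5 arrays (vertical axis) against the percent of colon RNA in the mix (horizontal axis), in 6 panels by place in the complex; each line is 1 gene and each point 1 array. Psma1, Psmb2 and Psmd10 (red) rose and Psmd9 (blue) fell, and the 34 grey genes did not pass the threshold.

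In the alpha ring, 1 of 8 genes rose and none fell (12.5% called, against 24.3% of all genes). The median slope was 0.08 (0.16 with centred arrays). Psma1, the alpha6 subunit, had log2 signals of 9.02, 9.53, 9.66, 9.66 and 9.94 at colon shares of 0%, 25%, 50%, 75% and 100%. It rose by a fitted 0.78 log2 units (SE 0.17, limma adjusted p = 0.0393), a 1.72-fold change, and was higher in each mix than in whole mouse. Without the whole mouse array the slope was 0.49 (adjusted p = 0.133). Its 2 other probe sets were dim, with mean signals of 3.18 and 2.91 and slopes of 0.06 and −0.06, and averaging all 3 gave a slope of 0.26 (adjusted p = 0.182). Psma6, the alpha1 subunit, showed the opposite course in its brightest probe set, with 12.40, 12.05, 11.88, 11.70 and 11.77 (slope −0.65, SE 0.16, adjusted p = 0.0504). That probe set carries the suffix of designs that can bind more than 1 transcript. A second Psma6 probe set, at a mean of 10.95, had a slope of −0.05 (adjusted p = 0.770), so the 2 disagree and the size of the difference depends on which is read.

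The remaining alpha genes had smaller slopes. Psma4 (alpha3) had 10.02 in whole mouse and 10.34, 10.34, 10.34 and 10.44 as the colon share increased (slope 0.33, adjusted p = 0.157), and Psma7 (alpha4) had 8.94, 9.24, 9.16, 9.15 and 9.44 (slope 0.37, adjusted p = 0.164). In these probe sets whole mouse was the lowest array and colon the highest, with the 3 mixes nearly level between them. A second Psma7 probe set of similar brightness read 9.13, 9.16, 8.85, 9.01 and 9.22, with a slope of 0.02 (adjusted p = 0.974) and the even mix lowest. Psma5 (alpha5) stayed between 10.68 and 10.75, Psma2 (alpha2) between 11.13 and 11.42, and Psma3 (alpha7) had a range of 0.33. Psma8, the alpha4 variant of the testis, was the dimmest member, at 4.65 to 4.70 on all 5 arrays, and no other member had a mean under 7.

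In the beta ring, 1 of 7 genes rose and none fell (14.3% called, against 24.3% of all genes). The median slope was 0.01 (0.10 with centred arrays). Psmb2, the beta4 subunit, had 10.02, 10.14, 10.25, 10.33 and 10.55 in order of rising colon share. It was 1 of 3 members whose values followed the mixing in strict order (7.89%, against 20.7% of all genes), and it rose by a fitted 0.50 log2 units (SE 0.10, adjusted p = 0.0301), a 1.41-fold change. Psmb3 (beta3), bright on every array, ran the other way, with 12.13, 12.02, 11.78, 11.83 and 11.70 (slope −0.42, SE 0.11, adjusted p = 0.0625), and its second probe set had a slope of −0.24. Psmb1 (beta6) and Psmb4 (beta7) had slopes of 0.16 and 0.20 and ranges of 0.25 each.

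None of the 3 catalytic subunits passed the threshold, and their ranges ran from 0.11 for Psmb5 and 0.29 for Psmb7 to 0.51 for Psmb6. Psmb5, the chymotrypsin-like site, had 11.90, 11.94, 11.86, 11.88 and 11.82, with a slope of −0.08 (95% interval −0.33 to 0.16, adjusted p = 0.627). Psmb7, the trypsin-like site, had 10.92, 10.96, 11.21, 10.91 and 10.96 and a slope of 0.01 (−0.41 to 0.44, adjusted p = 0.974), its highest value being that of the even mix. Psmb6, the caspase-like site, stood at 11.74 in whole mouse and at 11.37, 11.31, 11.35 and 11.23 in the arrays with colon (slope −0.42, −0.81 to −0.02, adjusted p = 0.126). Only whole mouse stood apart there, and the other 4 arrays lay close together.

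The induced counterparts, which the symbol rule leaves out, differed more. Psmb8 had 7.91, 8.37, 8.81, 9.19 and 9.26 and rose by 1.41 log2 units (SE 0.16, adjusted p = 0.0096). Psmb9 had 6.98, 8.24, 8.79, 9.08 and 9.26 and rose by 2.16 (SE 0.39, adjusted p = 0.0254). Within an array, the log2 difference between Psmb8 and its counterpart Psmb5 increased by 1.49 over the dilution, and that between Psmb9 and Psmb6 by 2.58. Each had p = 0.0167 in a 2-sided exact permutation test over the 120 orders of the arrays, the smallest p these allow, and 0.025 after adjustment over the 3 pairs. Without the whole mouse array the increase of Psmb9 over Psmb6 was 1.49 (exact permutation, adjusted p = 0.125), and with any 1 array left out the adjusted p of these 2 pairs lay between 0.0625 and 0.125. For Psmb10 and Psmb7 the increase was 1.25 (exact p = 0.0667, adjusted p = 0.0667), with Psmb10 at 11.78 in undiluted colon, against 10.51 for whole mouse, and highest in the 75% mix. Psme1, which forms the PA28 cap of immune tissues, had a slope of 0.43 (adjusted p = 0.150). The interferon-responsive factor Irf1 rose by 2.03 (adjusted p = 0.0128), and Tap1, the other measured gene of the interferon list, had a slope of 0.44 (adjusted p = 0.0954) and was lowest in the 25% mix. The part of interferon-responsive genes in these differences was not tested.

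**Figure D3:**
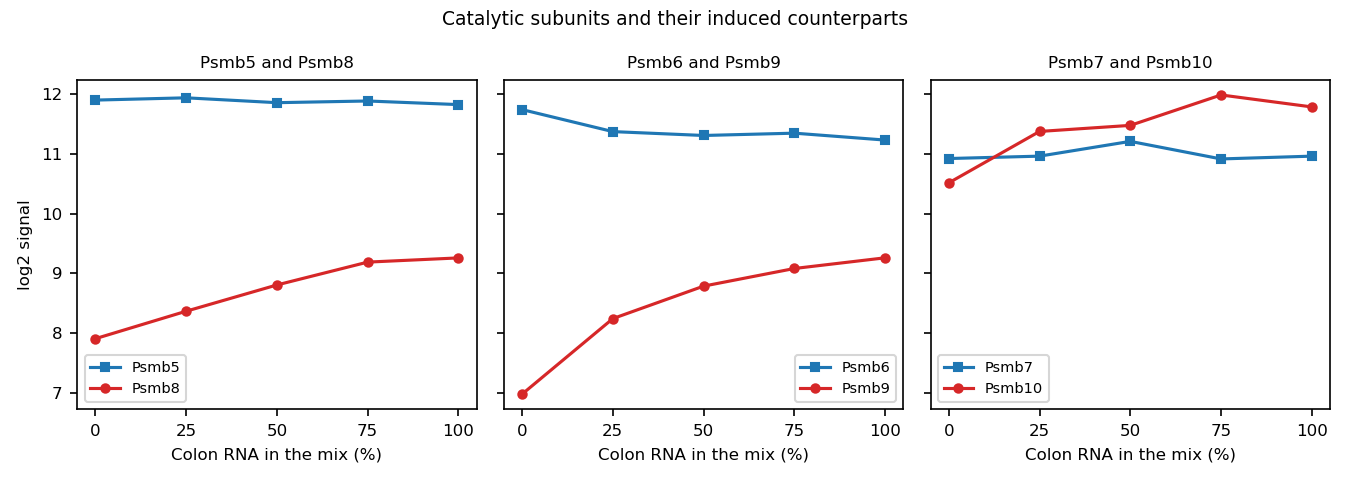
Log2 signal (vertical axis) against the percent of colon RNA in the mix (horizontal axis) for the 3 constitutive catalytic subunits (blue squares) and the induced subunits that replace them (red circles), 1 array per point. Psmb5, Psmb6 and Psmb7 move by at most 0.51 log2 units, while Psmb8, Psmb9 and Psmb10 span 1.35, 2.28 and 1.47; levels of different genes come from different probes and are not comparable in height.

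None of the 17 subunits of the 19S regulatory particle that the rule finds passed the limma test, against 24.3% of all genes. At an unadjusted limma p under 0.05 the count was 3, against 41.3% of all genes. The median slope of the 17 was −0.16, with 12 of 17 below 0 (−0.07 and 10 of 17 with centred arrays). Over all genes, 6345 of 12393 slopes were below 0 and the median was −0.01. Among the 6 ATPases, which unfold the substrate, 5 had slopes below 0, from −0.36 for Psmc2 (Rpt1) to −0.16 for Psmc5 (Rpt6), and Psmc6 (Rpt4) had 0.19. Psmc2 had 11.69, 11.63, 11.48, 11.22 and 11.45, and Psmc3 (Rpt5) had 11.36, 11.43, 11.26, 11.17 and 11.26. Psmc4 (Rpt3) gave 9.90, 9.90, 9.66, 9.59 and 9.66 in the probe set used (slope −0.31) and a slope of −0.32 in its other. In these 3 genes the low array was the 75% mix and not colon. The 25% mix was the highest array for Psmc1 (Rpt2, 9.75), Psmc3 and Psmc5 (10.88).

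The 11 non-ATPase subunits had a median slope of −0.06, which turned to 0.02 with centred arrays, and they included the lowest slope of all 38 genes. Psmd13, the Rpn9 subunit of the lid, had 10.96, 10.72, 10.54, 10.64 and 9.96 (slope −0.84, SE 0.22, adjusted p = 0.0553). Colon was thus 0.50 times whole mouse, and most of that difference lay between the 75% mix and colon. Its second probe set followed the same course, with 9.33, 9.01, 8.97, 9.07 and 8.46 (slope −0.68, adjusted p = 0.0915). Psmd3, the Rpn3 subunit of the lid, had 10.54, 10.24, 10.24, 10.23 and 9.82 (slope −0.58, SE 0.16, adjusted p = 0.0641), again with whole mouse highest, the mixes level and colon lowest.

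Psmd4, the ubiquitin receptor Rpn10, had 11.31, 11.26, 10.96, 11.08 and 10.79 (slope −0.49, SE 0.14, adjusted p = 0.0716), and its 2 other probe sets had slopes of −0.30 and −0.36. Psmd14, the deubiquitinase Rpn11 that releases the chain, had 9.69, 9.95, 9.76, 9.66 and 9.76, with no order along the dilution (slope −0.06, adjusted p = 0.841). The scaffold subunits of the base also differed little, Psmd2 (Rpn1) lying between 11.17 and 11.35 and Psmd1 (Rpn2) between 8.44 and 8.73. Of the other lid subunits, Psmd8 (Rpn12) stayed between 10.26 and 10.34, Psmd12 (Rpn5) between 9.38 and 9.63, Psmd11 (Rpn6) between 9.91 and 10.17 and Psmd6 (Rpn7) between 10.11 and 10.39. Dimmer probe sets of Psmd11 had slopes from −0.57 to 0.40, none past the threshold. Psmd7 (Rpn8), the partner of Psmd14, had 7.43 in whole mouse and 7.71 to 7.90 in the other arrays (slope 0.23, adjusted p = 0.477), and a dimmer probe set of it, at a mean of 5.53, had a slope of 0.56 (adjusted p = 0.0475).

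**Figure D4:**
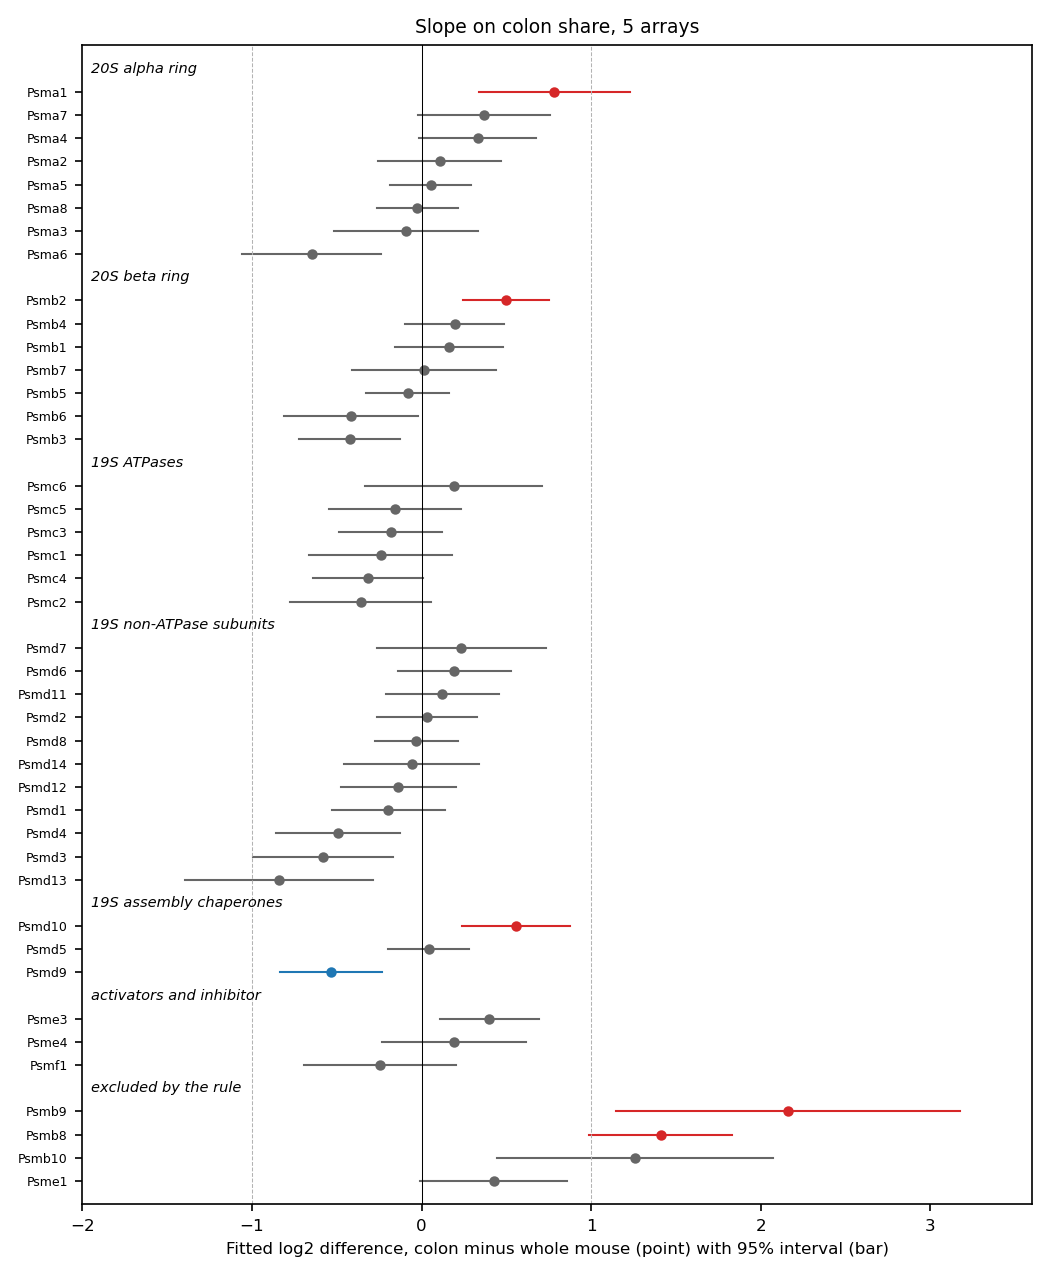
Slope of log2 signal on colon share (points; horizontal axis, fitted log2 difference of colon minus whole mouse) with its 95% interval (bars) for the 38 proteasome genes by place in the complex and, at the bottom, the 4 subunits the rule leaves out; dashed lines mark a 2-fold change. Genes that rose are red, those that fell blue and the others grey; the intervals of 35 members lie between the dashed lines.

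Factors that assist assembly moved in opposite directions. Psmd10 (gankyrin), a chaperone of the ATPase ring that also binds the retinoblastoma protein, had 6.79, 7.06, 7.25, 7.25 and 7.39 and rose by 0.56 log2 units (SE 0.12, adjusted p = 0.0397). Psmd9 (p27), another chaperone of that ring, had 8.67, 8.43, 8.33, 8.32 and 8.06 and fell by 0.53 (SE 0.12, adjusted p = 0.0380). For both the undiluted arrays were the extremes, with colon at 1.51 times whole mouse for Psmd10 and at 0.65 times for Psmd9. The dimmer probe set of Psmd9 was flat (slope −0.06), and with the arrays centred on their medians Psmd9 no longer passed (adjusted p = 0.064). Psmd5, the third chaperone, stayed between 8.84 and 8.90.

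Alternative caps and the inhibitor did not pass in the probe sets used. Psme3 (PA28 gamma), the nuclear activator, had 7.63, 7.75, 7.81, 7.82 and 8.09, in strict order (slope 0.40, SE 0.11, adjusted p = 0.0692). Its dimmer probe sets had slopes of −0.06 and −0.03. Psme4 (PA200), which helps degrade acetylated histones, had 9.59, 9.56, 9.65, 9.49 and 9.87 (slope 0.19, adjusted p = 0.499). A dimmer Psme4 probe set had a slope of 0.99 (adjusted p = 0.0445), so its probe sets disagree in size. Psmf1 (PI31), known as an inhibitor of the core particle in vitro, had 8.47 in whole mouse and 8.03 to 8.16 in the others (slope −0.24, adjusted p = 0.404), and its second probe set had a slope of 0.26.

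The arrays did not contribute evenly to these small differences. The 75% mix alone was lowest in 14 of the 38 genes (36.8%), 5 of them ATPases, against 12.5% of all genes and 10.4% of genes with a mean signal of at least 10. It was also alone lowest for 3 of 8 chaperonin subunits, 3 of 11 partners and assembly factors, 2 of 4 ubiquitin genes and all 3 measured proliferation genes (Mki67, Top2a and Cdk1). For the COP9 signalosome the count was 1 of 9 subunits (11.1%), and for the 4 subunits the rule leaves out it was 0. Relative to linear mixing of the undiluted intensities, the 38 genes deviated by medians of 0.01, −0.03 and −0.06 log2 units at 25%, 50% and 75% colon (all genes −0.05, −0.08 and −0.06), and no member was off by more than 0.36. Over all genes deviations reached 1.68, at 25% colon. The mixing line joins a gene's own undiluted values, so a gene with a small range can deviate only a little. At 75% colon, 28 of 38 members (73.7%) lay below the mixing line, against 65.9% of all genes. The order was the other way in the other mixes, with 50.0% against 58.6% at 25% colon and 60.5% against 66.3% at 50%.

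The listed partners and assembly factors had a median range of 0.48, against 0.35 for the 38 proteasome genes. Of 12 listed partners and assembly factors 11 were measured. Of these, 2 rose and none fell (18.2%, against 24.3% of all genes), with a median slope of −0.02. Nfe2l2, the stress-activated relative of Nfe2l1, had 8.95, 10.46, 11.22, 11.13 and 11.62 and rose by 2.40 log2 units (SE 0.52, adjusted p = 0.0376). Nfe2l1 itself stayed between 9.15 and 9.38 (slope −0.17, adjusted p = 0.406). Ecpas, a scaffold that tethers the 2 particles, had 7.32, 7.88, 8.05, 8.12 and 8.33 and rose by 0.90 (SE 0.18, adjusted p = 0.0306). Uchl5, a deubiquitinase of the regulatory particle, had a slope of 0.73 (adjusted p = 0.0690), whereas the other such enzyme, Usp14, had −0.23. The core chaperones Pomp and Psmg1 to Psmg4 had slopes from −0.41 (Psmg4) to 0.31 (Pomp). Sem1, the brightest gene of this list not past the threshold, stood between 10.53 and 10.82.

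Other large complexes of every cell showed ranges like those of the proteasome. Among 9 subunits of the COP9 signalosome, a relative of the lid, the median range was 0.37 and 1 gene fell, Cops8, by 0.59 log2 units (SE 0.11, adjusted p = 0.0277), while its brightest subunit, Cops6, lay between 10.53 and 10.83. Among 8 subunits of the chaperonin CCT, which folds actin and tubulin, the median range was 0.34 and none passed the limma test (2 had an unadjusted p under 0.05), the brightest being Cct3 (slope −0.35, adjusted p = 0.0755). Of 11 listed ubiquitin pathway genes 4 were measured with a probe set of their own, none passed (0 at an unadjusted p under 0.05), and the segregase Vcp, the brightest, had a slope of −0.40 (adjusted p = 0.162). Over all genes 24.3% passed, against 11.1% of the COP9 signalosome genes, and 41.3% had an unadjusted limma p under 0.05. No test was made of the differences between these lists and the proteasome.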

How the data were processed

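The authors deposited log2 expression values, 22690 probe sets by 5 arrays, which come from RMA per the submitters' processing notes. RMA subtracts background, quantile-normalizes the arrays and summarises probes by median polish; the sources used here give no version of it. RMA equalises the arrays' distributions and shrinks small differences. The 64 control probe sets were left out and the other 22626 tested without a filter. The platform annotation names 1 gene for 20380 of them, several for 691 and lists no gene for 1555.

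The slope on colon share (0 to 1) was fitted to every probe set with limma 3.58.1 in R 4.3.3 (eBayes, 3 residual degrees of freedom, 2-sided), Benjamini-Hochberg adjusted over all probe sets at 0.05. The fit was also run on simulated signals that were straight lines in log2 with noise. That run does not cover genes whose log2 signal curves along the dilution. Pairs of subunits were compared by exact permutation, adjusted over 3 pairs. All members are named with their values. Members, lists and tests were chosen with earlier results of these data known. Motifs were searched in the 250 bases before RefSeq starts (GRCm38.p6). Alternatives left out each array, centred the arrays, used linear intensities, an intensity trend, a filter at a mean of 6, gene means, shared probe sets or, chosen after seeing the data, no cross-hybridising probe sets.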

Additional observations from a re-analysis of the deposited data

How the results depend on the processing

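Leaving out 1 array in turn moved the number of proteasome genes that rose from 3 to between 0 and 1, and the number that fell from 1 to between 0 and 1. These fits had 4 arrays and fewer residual degrees of freedom. The number that fell was 0 with the arrays centred on their medians, 4 with linear intensities and 5 among probe sets with a mean of at least 6, where fewer probe sets shared the adjustment. Under these settings 29.3%, 29.4% and 35.2% of all genes passed, against 24.3% as reported above. The number that rose stayed between 3 and 4. Psma6, Psmd3 and Psmd13 passed both with linear intensities and with the filter, and Psmb3 with the filter alone. Centring added Psme3 among the rises. With gene means Psma1 and Psmd9 did not pass, and Psmd3 and Psme4 did. Without cross-hybridising probe sets, an alternative chosen after seeing the data, the same 4 genes passed. The median slope of the proteasome genes turned from −0.03 to 0.06 with centring. None of the 4 called genes changed sign under these alternatives. The median range of all genes lay between 0.34 and 0.48 with 1 array left out, the lowest value being without the whole mouse array, and that of the proteasome genes between 0.29 and 0.32. The increase of Psmb8 over Psmb5 lay between 1.35 and 1.76, and that of Psmb9 over Psmb6 between 1.49 and 3.24, with 1 array left out, at adjusted exact p-values between 0.0625 and 0.125. The fewer orders of 4 arrays limit how small those p-values can be. Psmb10 over Psmb7 lay between 0.81 and 1.71. No paired analysis was possible because each mix had 1 array. Without replicate arrays or probe intensities, small differences could not be resolved: the 95% interval of the slope was −0.20 to 0.28 even for Psmd5, whose interval was the narrowest of the members.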

Other observations

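Psme2, the partner of Psme1 in the interferon-inducible PA28 cap, is covered only by a probe set that the annotation pairs with Psme2 and its copy Psme2b, so that the 2 cannot be told apart and it is not among the 38 genes. On the log2 scale it read 10.03 in whole mouse, then 10.60, 10.68 and 10.99 in the mixes, and was highest in colon. Its slope was 0.93 (SE 0.18, limma adjusted p = 0.0304), which is above the slopes of all 38 members and below that of Psmb10.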
